A study of Mus musculus with 212 samples.

Results

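The genes described here are the histocompatibility genes of the mouse: every gene of the mRNA table whose symbol starts with H2-, together with B2m, Tap1, Tap2 and Cd74. They number 48 of the 27123 genes of the table, 44 with an H2- symbol and 4 others. The study measured the brains of untreated mice of the LXS panel, a set of recombinant inbred strains. Its parents are the inbred strain ILS, selected for a long loss of the righting reflex after ethanol (long sleep), and the inbred strain ISS, selected for a short one. Its labels describe small RNA libraries from right brain hemispheres of naive mice of these strains, with no treatment, and give neither age nor sex. The mRNA values are log2 expression per gene and profile, in columns named by a strain, a code that matches no label and a closing number, here called the set. They could be tied to labelled groups for 4 strains: 6 profiles of ILS, 6 of ISS, 5 of the progeny strain LXS41 and 6 of the progeny strain LXS80. LXS41 and LXS80 are inbred, each carrying at a given locus the ILS or the ISS allele. Whether the profiles of a strain come from separate animals is not given in the labels, so p-values measure the spread between profiles, which may in part be technical.

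Class I molecules are made of a heavy chain held by beta-2-microglobulin and show peptides from inside the cell, which the transporter Tap1 and Tap2 carries into the endoplasmic reticulum. Class II molecules are pairs of alpha and beta chains that show peptides from engulfed proteins, loaded with the help of the invariant chain Cd74, H2-DM and H2-O. Most of these genes lie side by side in the major histocompatibility complex (MHC), are among the most variable genes between mouse strains, and are low in resting brain, where microglia and border macrophages are their best known source. Neighbouring class I genes are near copies of each other, so a probe may read more than 1 of them, and a probe may also bind the alleles of ILS and ISS unequally. Neither was tested here, and in bulk tissue fewer cells of a type and less RNA per cell cannot be told apart.

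All 44 H2- genes, Tap1 and Tap2 lay on chromosome 17 by RefSeq GRCm38.p6 and B2m on chromosome 2; Cd74 lay on another chromosome. The stretches before the start sites of the heavy chain genes H2-D1 and H2-K1, of B2m and of the class II beta chain gene H2-Eb1 are shown because results below set H2-D1 and H2-Eb1 beside H2-K1 and B2m. They are the 250 bases upstream of each RefSeq start in the reference genome, 5′ to 3′ on the gene's strand, not the sequence of ILS or ISS. Capitals mark CCAAT on either strand (ATTGG is its reverse), the kappa B-like GGGNNTTCC and the interferon-type GAAANNGAA, each searched on both strands.
H2-D1 (chr17:35262844-35263093, plus strand): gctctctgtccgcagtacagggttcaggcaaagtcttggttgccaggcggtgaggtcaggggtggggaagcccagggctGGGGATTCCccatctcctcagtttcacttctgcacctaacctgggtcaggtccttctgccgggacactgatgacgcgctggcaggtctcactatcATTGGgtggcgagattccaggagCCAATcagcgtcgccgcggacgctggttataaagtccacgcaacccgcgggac
H2-K1 (chr17:34000348-34000597, minus strand): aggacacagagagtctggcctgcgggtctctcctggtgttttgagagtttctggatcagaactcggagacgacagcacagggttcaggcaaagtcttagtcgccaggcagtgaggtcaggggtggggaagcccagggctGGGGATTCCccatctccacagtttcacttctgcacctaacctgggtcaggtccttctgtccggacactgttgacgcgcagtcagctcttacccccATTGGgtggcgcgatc
B2m (chr2:122147437-122147686, plus strand): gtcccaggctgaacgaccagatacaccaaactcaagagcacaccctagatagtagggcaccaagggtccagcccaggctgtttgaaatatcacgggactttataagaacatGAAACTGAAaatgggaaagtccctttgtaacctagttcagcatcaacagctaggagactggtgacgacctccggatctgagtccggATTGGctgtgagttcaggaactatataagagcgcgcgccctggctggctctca
H2-Eb1 (chr17:34305617-34305866, plus strand): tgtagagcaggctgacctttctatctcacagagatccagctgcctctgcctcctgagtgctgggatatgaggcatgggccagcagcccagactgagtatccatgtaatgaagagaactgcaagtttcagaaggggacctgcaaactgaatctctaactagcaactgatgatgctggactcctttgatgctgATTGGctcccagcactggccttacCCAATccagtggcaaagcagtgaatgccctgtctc
Aligned to each other, the H2-D1 and H2-K1 stretches were identical at 174 of 190 aligned bases (91.6%), with bases set against gaps left out. H2-D1 and B2m matched at 70.5% of theirs, and all pairs except H2-D1 with H2-K1 at 70.0% to 77.0%. The share that unrelated stretches reach in this way was not computed, so the lower shares do not show likeness. Both heavy chain genes had 1 GGGNNTTCC match and no GAAANNGAA match, and H2-D1 had 2 CCAAT matches where H2-K1 had 1. The second H2-D1 match lies downstream of the point where the H2-K1 stretch ends. The 2 counts therefore cover unlike stretches and show no difference between the genes. Of the 48 genes, 34 had such a stretch in the table used. CCAAT stood in 30 of these 34 (88.2%), against 34.5% of 27025 stretches of all genes. GGGNNTTCC stood in 8 (23.5%, against 4.88%) and GAAANNGAA in 3 (8.82%, against 7.16%). These are matches of letters in genes that are copies of one another, not sites shown to be bound. Other spellings of an interferon site were not searched. The lack of a GAAANNGAA match therefore does not show that H2-D1 and H2-K1 have no interferon site. For the same reason 8.82% against 7.16% does not show how common such sites are among the members.

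Between the parents, 1 histocompatibility gene stood far apart from the rest: H2-D1, a classical class I heavy chain gene, was much lower in ILS than in ISS. H2-Ea-ps, the class II E alpha gene, and H2-Eb1, its beta chain partner, were also lower in ILS, and the M region class I gene H2-M5 was higher. These 4 of 48 (8.33%) had an adjusted p under 0.05 for ILS minus ISS, by limma with Benjamini-Hochberg adjustment over all genes. Over all genes the share called was 5.59%, so the members' share is not far from the background. With set as a term in the fit H2-D1 alone of the 4 kept its call. Each later set holds 1 strain, so that fit takes the parental difference from set 1 alone. The members' median difference was -0.01, as over all genes. Their median absolute difference was 0.10, against 0.07 over all genes.

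**Figure D1:**
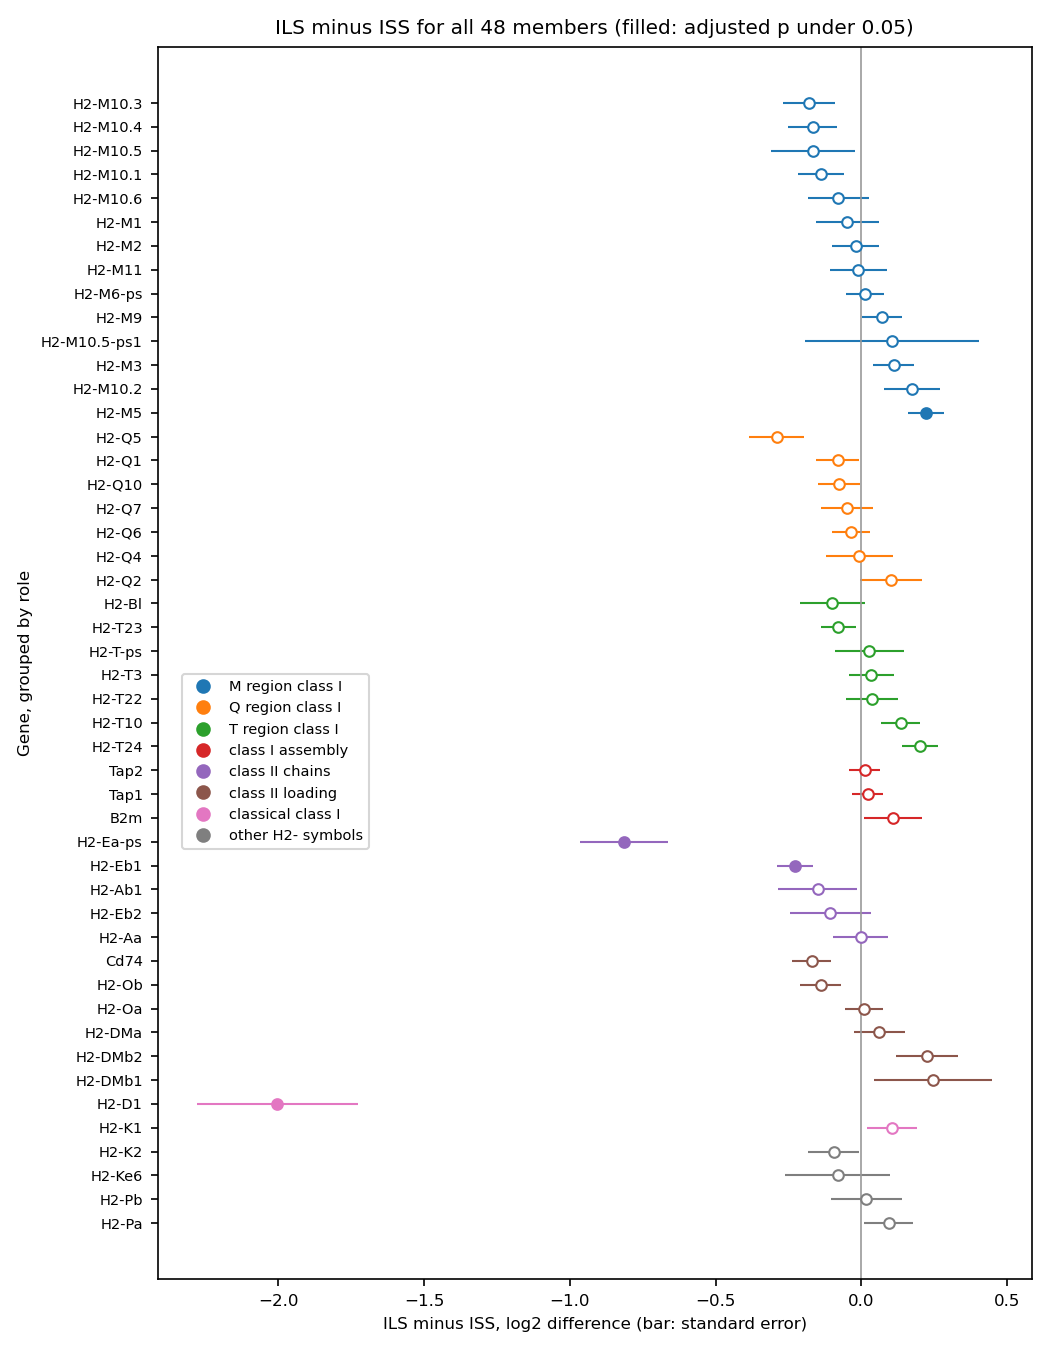
ILS minus ISS (x axis, log2 difference, bars are limma's standard errors) for the 48 genes in rows, coloured by role. Filled points have an adjusted p under 0.05: H2-D1 lies alone at -2.0, H2-Ea-ps at -0.81, and all others lie between -0.29 and 0.25.

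H2-D1 encodes one of the heavy chains that present peptide to CD8 T cells. Its log2 expression in the 6 ILS profiles was 4.41, 4.59, 4.09, 4.21, 4.55 and 4.52. In the 6 ISS profiles it was 6.57, 6.38, 7.0, 6.22, 6.46 and 5.75. The highest ILS profile therefore lay more than 1 log2 unit under the lowest ISS profile, and the groups did not overlap. ILS minus ISS was -2.0 (SE 0.28, limma adjusted p = 4.62e-05). The exact two-sided permutation test of the 12 parental profiles gave p = 0.00216, unadjusted, the smallest that its 924 splits allow. The difference was -2.29 among the set 1 profiles (adjusted p = 0.00136) and -1.72 among later sets (adjusted p = 0.0494). Leaving out any 1 of the 23 profiles kept it between -2.13 and -1.88, with adjusted p of at most 0.000193.

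The 2 progeny strains fell on opposite sides for H2-D1. LXS41 had 6.83, 6.28, 6.39, 5.43 and 5.88, all 5 nearer to the ISS mean than to the ILS mean. LXS80 had 4.80, 5.75, 3.60, 3.90, 4.56 and 4.65, of which 5 were nearer to the ILS mean and 1, replicate 2 at 5.75, was nearer to that of ISS. LXS80 therefore overlapped both ISS and LXS41 through that 1 profile, and its spread (SD 0.75) was wider than that of ILS (SD 0.20). LXS41 minus ILS was 1.77 (SE 0.29, adjusted p = 0.000801) and LXS80 minus ISS was -1.85 (SE 0.28, adjusted p = 0.000224). LXS41 minus ISS was -0.24 (SE 0.29, adjusted p = 0.672) and LXS80 minus ILS was 0.15 (SE 0.28, adjusted p = 0.809). Among later sets alone both calls were lost, at 1.48 for LXS41 minus ILS (adjusted p = 0.134) and -1.60 for LXS80 minus ISS (adjusted p = 0.0557). LXS80 shares no set with the other strains, so strain and set cannot be told apart for it.

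The lower of the 2 levels is not shown to be above background. The 907 olfactory receptor genes of the table, which the brain is expected to express little, had mean levels from 2.89 (5th percentile) over 4.82 (median) to 7.37 (95th percentile). The ILS mean of H2-D1, 4.39, lay under that median. The log2 differences of H2-D1 are therefore differences of measured signal, which may understate those of the transcript, and no fold is drawn from them. Of the 48 genes, 12 had a mean above that 95th percentile and 5 had a mean under that median. Background signal may differ from gene to gene, so this gives no threshold of detection.

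**Figure D2:**
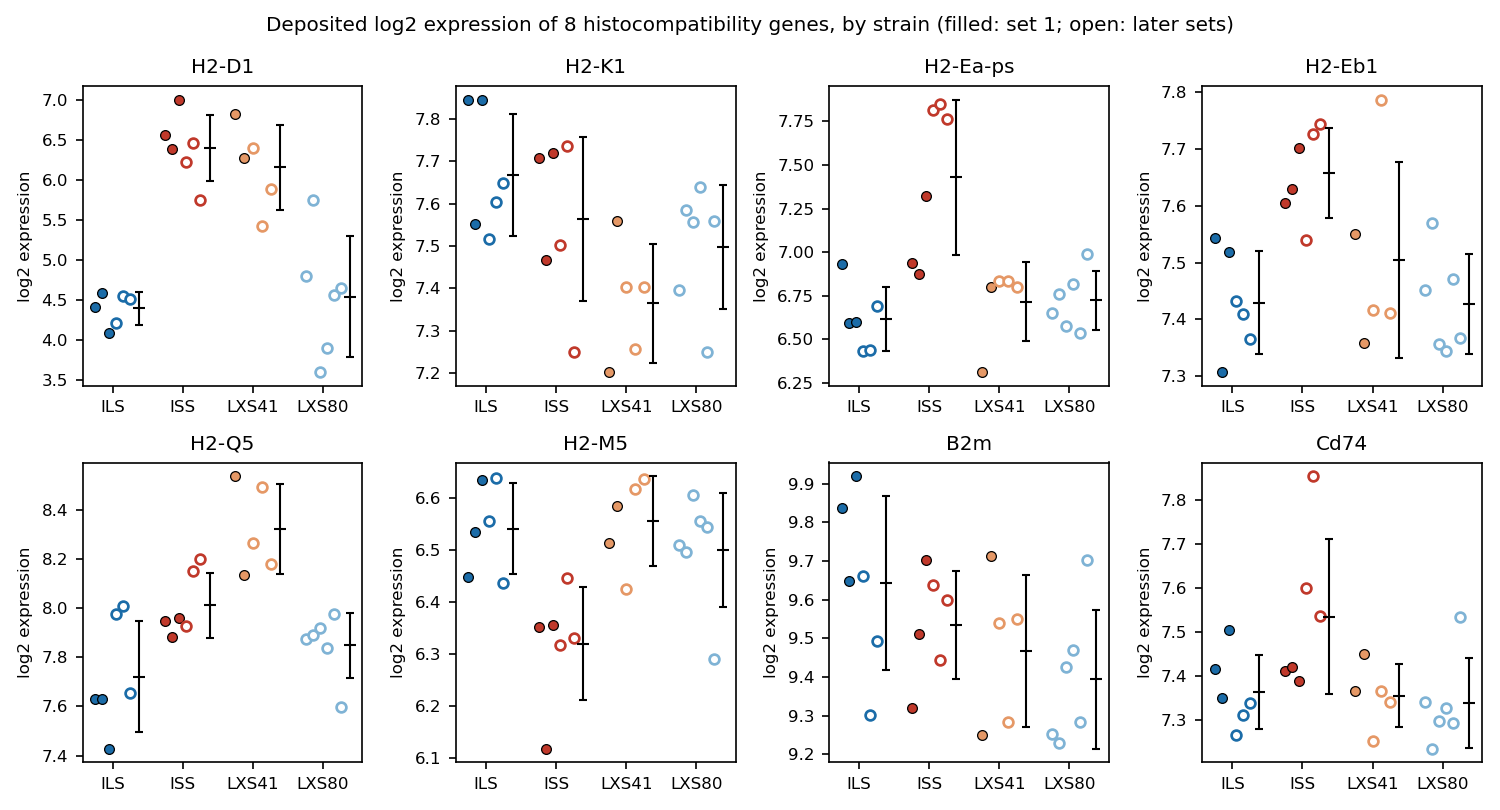
Log2 expression (y axis, a separate scale for each gene) of 8 genes in the 23 profiles by strain. Filled points are set 1, open points later sets, and the bar beside each strain is its mean and SD. H2-D1 is low in ILS and in LXS80 save 1 profile, and H2-Ea-ps is highest in 3 later ISS profiles, at 7.76 to 7.85.

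H2-K1, the other classical heavy chain gene, showed no such split. Its lowest, median and highest values were 7.52, 7.63 and 7.85 in ILS, and 7.25, 7.60 and 7.74 in ISS. In LXS41 they were 7.20, 7.40 and 7.56, and in LXS80 7.25, 7.56 and 7.64. All 4 strains overlapped. ILS minus ISS was 0.10 (SE 0.09, adjusted p = 0.591), and LXS41 minus ILS, at -0.30 (SE 0.09), missed the threshold with an adjusted p of 0.0542.

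The genes that carry peptide to class I or hold the heavy chain were called in no contrast and under no alternative setting. B2m, the light chain of every class I molecule, had lowest, median and highest values of 9.30, 9.65 and 9.92 in ILS and 9.32, 9.55 and 9.70 in ISS. In LXS41 they were 9.25, 9.54 and 9.71, and in LXS80 9.23, 9.36 and 9.70. The 4 ranges overlapped, though ILS replicates 1 and 3, at 9.84 and 9.92, lay above every profile of the other strains. LXS80 minus ILS was -0.25 (SE 0.10, limma adjusted p = 0.196). The limma adjusted p for any difference of B2m among strains was 0.246. Tap1, one chain of the peptide transporter, had 6.45, 6.61 and 6.70 in ILS, 6.49, 6.58 and 6.63 in ISS, 6.37, 6.53 and 6.56 in LXS41, and 6.39, 6.52 and 6.67 in LXS80. Tap2, its partner chain, had 7.33, 7.42 and 7.51 in ILS, 7.26, 7.41 and 7.54 in ISS, 7.24, 7.30 and 7.38 in LXS41, and 7.26, 7.41 and 7.44 in LXS80. Both transporter genes overlapped in all strains, with strain means within 0.11 of each other. Their ILS minus ISS differences were 0.02 (SE 0.05, adjusted p = 0.897) for Tap1 and 0.01 (SE 0.05, adjusted p = 0.953) for Tap2. That of B2m was 0.11 (SE 0.10, adjusted p = 0.644).

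Among the 5 class II chain genes, H2-Ea-ps and H2-Eb1 were lower in ILS than in ISS, and the other 3 did not pass the test. H2-Ea-ps encodes the E alpha chain and bears a pseudogene symbol because the reference strain carries a deletion in it. Its values were 6.93, 6.59, 6.60, 6.44, 6.44 and 6.69 in ILS. In ISS they were 6.94, 6.88 and 7.32 in set 1 and 7.82, 7.85 and 7.76 in set 15. The 3 later ISS profiles stood above every other profile, while the lowest ISS profile of set 1, at 6.88, lay within the ILS range. ILS minus ISS was -0.81 (SE 0.15, adjusted p = 0.00149). Within set 1 it was -0.34 (SE 0.16, adjusted p = 0.535), with a set term it had the same size and an adjusted p of 0.384, and among later sets -1.29 (SE 0.10, adjusted p = 1.02e-05).

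The test of whether that difference itself changed between set 1 and later sets gave 0.95 for H2-Ea-ps (limma adjusted p = 0.437). No gene passed that test after adjustment, and 1205 of 27123 had an unadjusted p under 0.05. Cd74, the invariant chain that escorts class II molecules, moved with the same ISS profiles. It had 7.41, 7.42 and 7.39 in ISS set 1 and 7.60, 7.85 and 7.54 in ISS set 15. The 3 later ISS profiles were thus above the ISS profiles of set 1, with no overlap. The share of all genes split in this way was not counted. ISS set 15 minus set 1 had a limma adjusted p of 0.504 for Cd74 and 0.144 for H2-Ea-ps. In that comparison 0 of 27123 genes were called, and 1849 had an unadjusted p under 0.05. H2-K2 split the 2 ISS sets the other way, at 9.03 to 9.12 in set 1 and 8.66 to 8.83 in set 15. For Cd74 the lowest, median and highest values were 7.27, 7.34 and 7.5 in ILS. In LXS41 they were 7.25, 7.37 and 7.45, and in LXS80 7.24, 7.31 and 7.53. ILS minus ISS for Cd74 was -0.17 (SE 0.07, adjusted p = 0.16) over all sets, 0.02 in set 1 (adjusted p = 0.975) and -0.36 among later sets (adjusted p = 0.0426).

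The mean level of 6 border macrophage markers was 5.84 to 5.98 in ISS set 1 and 5.90 to 6.02 in ISS set 15, overlapping, against 5.78 to 5.86 in ILS. For 6 dendritic cell markers it was 7.1 to 7.12 in ISS set 1, 7.07 to 7.17 in ISS set 15 and 6.98 to 7.14 in ILS. For 10 microglia markers it was 8.07 to 8.28, 8.18 to 8.23 and 8.25 to 8.45 in the same order. The mean marker levels of the 2 ISS sets overlapped for each of these lists, and for the neuron and endothelial lists. They did not for 2 other lists of cell markers, which were higher in ISS set 15. The mean of 10 lymphocyte markers was 5.82 to 5.91 in ISS set 1 and 5.93 to 6.02 in ISS set 15, against 5.89 to 6.02 in ILS. That of 4 erythroid markers was 5.94 to 6.06 in ISS set 1 and 6.18 to 6.49 in ISS set 15, against 5.91 to 6.26 in ILS. Lists that are not of cell markers split too. Peptide loading genes had 9.31 to 9.41 in ISS set 1 and 9.43 to 9.44 in ISS set 15. Receptors of class I had 5.345 to 5.423 and 5.424 to 5.514. How often 3 ISS profiles of set 1 and 3 of set 15 split in this way over all genes was not counted. Between strains, also with 3 profiles a side, ILS and ISS did not overlap in 15.4% of all genes in set 1 alone and 18.6% in later sets alone. Those shares are of single genes and include strain differences, so they give no base rate for the splits of the ISS sets. The part of any of these cell types in the H2-Ea-ps difference was not tested.

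Both progeny strains were lower than ISS for H2-Ea-ps. LXS41 had 6.31, 6.80, 6.83, 6.84 and 6.80, and all 5 were nearer to the ILS mean. LXS80 had 6.65, 6.76, 6.58, 6.82, 6.54 and 6.99, and all 6 were nearer to the ILS mean. The midpoint between the parental means, 7.02, was raised by the 3 ISS profiles of set 15, and ISS replicates 1 and 2, at 6.94 and 6.88, lay under it too. The counts therefore do not place the progeny with ILS rather than with ISS of set 1, whose range LXS80 overlapped. LXS41 minus ISS was -0.71 (SE 0.16, adjusted p = 0.0113) and LXS80 minus ISS was -0.71 (SE 0.15, adjusted p = 0.00991). The call for LXS41 minus ISS was lost with only those 2 strains in the fit (adjusted p = 0.0744), with a set term (-0.49, adjusted p = 0.119) and in set 1 alone (-0.49, adjusted p = 0.208).

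H2-Eb1, the E beta chain, had lowest, median and highest values of 7.31, 7.42 and 7.54 in ILS and 7.54, 7.67 and 7.74 in ISS. The parents met at 7.54 and differed by -0.23 (SE 0.06, adjusted p = 0.0322). LXS80, at 7.34, 7.41 and 7.57, was also under ISS, by -0.23 (SE 0.06, adjusted p = 0.0411). LXS41, at 7.55, 7.36, 7.42, 7.79 and 7.41, spanned both parents. The ILS minus ISS call was lost without ILS replicates 2, 4, 5 or 6 or ISS replicates 3, 5 or 6 (adjusted p 0.0561 to 0.0834), with a set term (-0.19, adjusted p = 0.536), within set 1 (-0.19, adjusted p = 0.51) and among later sets (-0.27, adjusted p = 0.201). The LXS80 minus ISS call was lost without ILS replicate 5, any ISS replicate but 4, or any LXS80 replicate but 2 (adjusted p 0.0504 to 0.0975), with quantile normalization (adjusted p = 0.0614) and among later sets (-0.24, adjusted p = 0.234).

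H2-Aa, the A alpha chain, had lowest, median and highest values of 7.83, 8.19 and 8.30 in ILS, 8.0, 8.13 and 8.28 in ISS, 7.91, 8.03 and 8.44 in LXS41, and 7.65, 7.95 and 8.12 in LXS80. All 4 strains overlapped. LXS80 was the lowest on average, at -0.23 against ILS (SE 0.09, adjusted p = 0.207) and -0.23 against ISS (SE 0.09, adjusted p = 0.188). The strain means of H2-Ab1, the A beta chain, lay between 5.55 and 5.71, and those of H2-Eb2 between 5.25 and 5.49. Neither H2-Aa, H2-Ab1 nor H2-Eb2 had an adjusted p under 0.05 in any contrast or in the test over strains.

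Of the 6 class II loading genes, none passed the test between the parents, and H2-DMa was lower in LXS41 than in ILS. H2-DMa and its partners H2-DMb1 and H2-DMb2 form the exchange factor that puts peptide on class II, and H2-Oa and H2-Ob restrain it. H2-DMa had 6.07, 6.07, 6.17, 6.22 and 6.25 in LXS41, against lowest, median and highest values of 6.24, 6.48 and 6.76 in ILS and 6.16, 6.46 and 6.60 in ISS. All but the highest LXS41 profile lay under every ILS profile. LXS41 minus ILS was -0.33 (SE 0.09, adjusted p = 0.0419). Leaving out replicate 1, 2, 4 or 6 of ILS, or any of LXS41 but 5, ended the call (adjusted p 0.0528 to 0.12). So did quantile normalization (adjusted p = 0.0527), median centring (-0.30, adjusted p = 0.0689) and a fit of the 2 strains alone (adjusted p = 0.0768). It was also lost with a set term (-0.36, adjusted p = 0.185), within set 1 (-0.36, adjusted p = 0.185) and among later sets (-0.32, adjusted p = 0.293).

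Microglia markers were also lower in LXS41 than in ILS. Of 10 such markers, 6 were called lower in LXS41 than in ILS and none higher, against 4.95% of all genes called. Among these markers C1qc was at -0.82 (SE 0.07, limma adjusted p = 3.58e-08). Their mean level was 7.94 to 8.04 in LXS41, 8.25 to 8.45 in ILS, 8.07 to 8.28 in ISS and 8.08 to 8.30 in LXS80, so LXS41 overlapped none of the other strains. Cathepsin S (Ctss), which trims the invariant chain, was also lower in LXS41 than in ILS, by -0.43 (SE 0.08, adjusted p = 0.00402). As deposited, 22.5% of all calls for LXS41 minus ILS were higher in LXS41. Cd74, the invariant chain of class II, was at -0.009 in that contrast (SE 0.07). For LXS80 minus ILS 3 of the 10 markers were called lower, while H2-DMa was at -0.004 (SE 0.09). The part of microglia in the H2-DMa difference was not tested.

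No contrast with a progeny strain called more than 4 of the members. LXS41 differed from ILS in 4 of the 48 genes, H2-D1 and H2-Q5 higher and H2-DMa and H2-M6-ps lower (8.33%, against 4.95% of all genes). It differed from ISS in 4, H2-M5 higher and H2-Ea-ps, H2-M10.3 and H2-M6-ps lower (8.33%, against 6%). LXS80 differed from ISS in 4, all lower: H2-D1, H2-Ea-ps, H2-Eb1 and H2-M10.3 (8.33%, against 3.48%). LXS80 minus ILS gave 0 calls by limma, with 7 of 48 at an unadjusted p under 0.05, against 2.57% of all genes called. With a set term H2-D1 and H2-Q5 kept their call for LXS41 minus ILS, and only H2-M10.3 of the 4 did for LXS41 minus ISS. These contrasts share profiles, so their lists are not independent of one another. The test for any difference among the 4 strains called 10 of 48 (20.8%, against 16.5%): the 8 named so far in a contrast, H2-M10.1 and H2-T22.

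The split of calls depended on scaling. The median difference over all genes was -0.03 for LXS41 minus ILS and -0.04 for LXS41 minus ISS, and 22.5% and 19.7% of all calls in those contrasts were higher in LXS41. After median centring these shares were 38% and 39.7%, and after quantile normalization 43.9% and 46.1%. Among the members, median centring left H2-D1 and H2-Q5 for LXS41 minus ILS, both higher, and 1 higher and 1 lower gene for LXS41 minus ISS. For LXS80 minus ISS, 61.6% of all calls were higher in LXS80 as deposited and 75.3% after median centring. Among the members that split was 0 higher and 4 lower as deposited, 1 and 4 after centring and 3 and 3 after quantile normalization. For ILS minus ISS it was 1 and 3 as deposited, and 2 and 3 after either scaling.

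**Figure D3:**
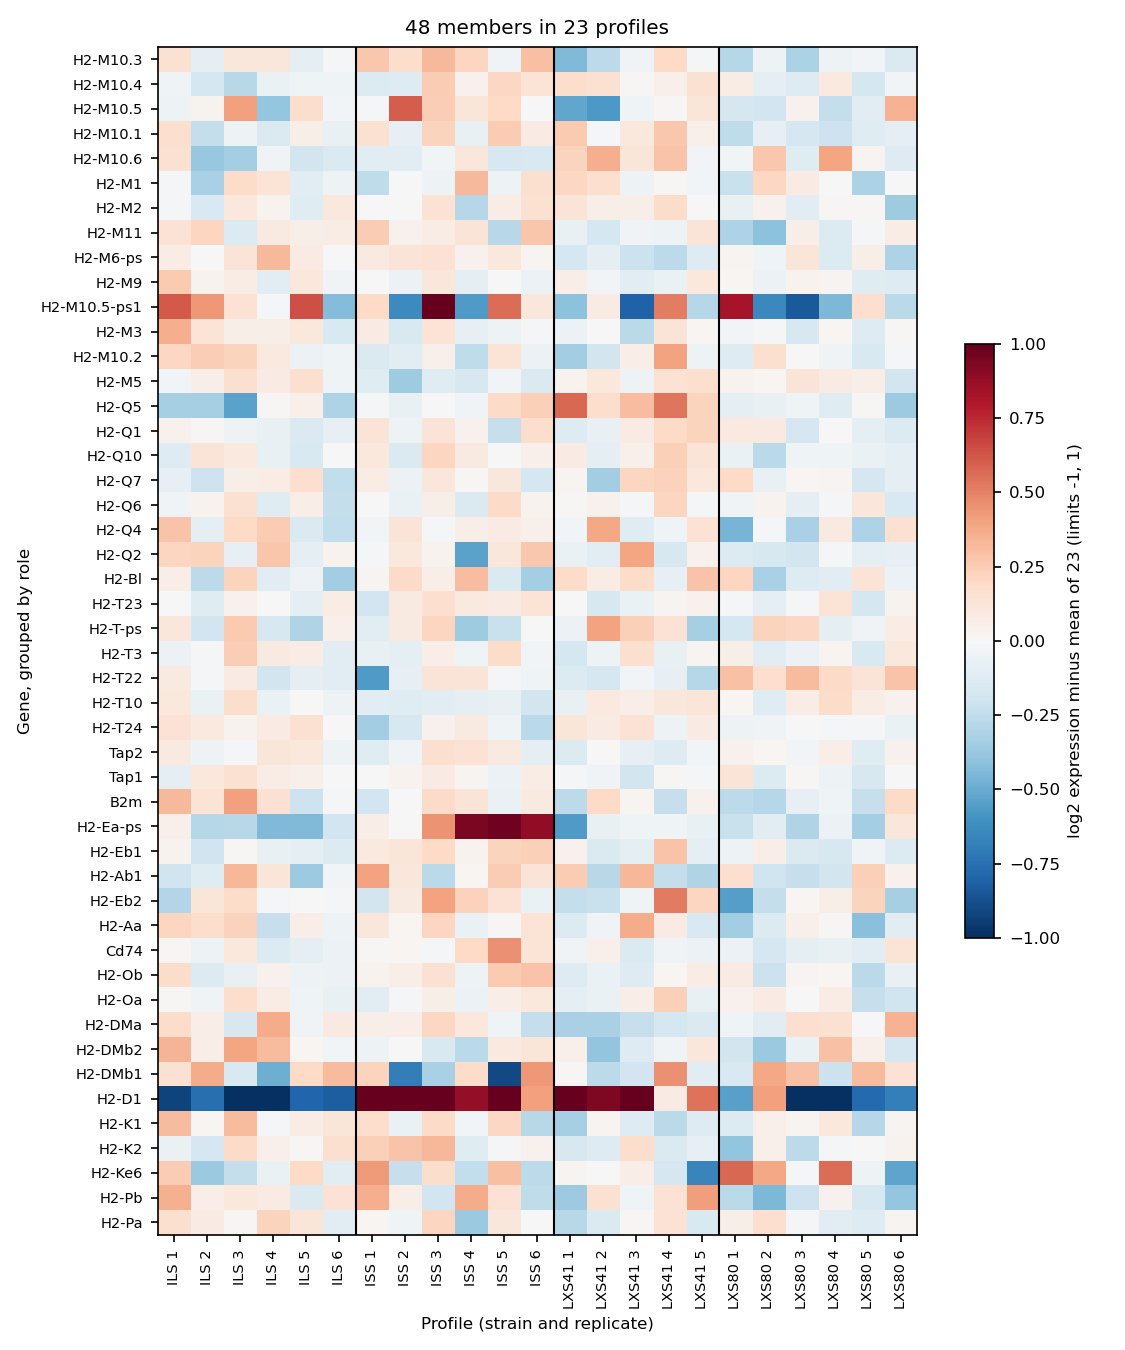
Log2 expression minus each gene's mean over the 23 profiles (colour, limits at -1 and 1) for the 48 genes in rows, grouped by role, and the profiles in columns, grouped by strain. Only H2-D1 changes by strain over most of the colour range, and H2-Ea-ps is high in ISS replicates 4 to 6. The spread of H2-M10.5-ps1 runs within strains.

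Among the 7 Q region class I genes, which encode nonclassical heavy chains such as Qa-2, only H2-Q5 was called, and it was highest in LXS41. LXS41 had 8.54, 8.13, 8.27, 8.49 and 8.18, ILS had 7.63, 7.63, 7.43, 7.98, 8.01 and 7.66, and ISS had 7.95, 7.88, 7.96, 7.93, 8.15 and 8.20. Every LXS41 profile was above every ILS profile, and 2 of the 5 lay within the range of ISS. LXS80 had 7.87, 7.89, 7.92, 7.84, 7.98 and 7.60, between the parental means on average. LXS41 minus ILS was 0.60 (SE 0.10, adjusted p = 0.000775). LXS41 minus ISS was 0.31 (SE 0.10, adjusted p = 0.0598), and ILS minus ISS was -0.29 (SE 0.09, adjusted p = 0.0735). No single profile decided the LXS41 minus ILS call (0.54 to 0.66 with each left out), but among later sets alone it was 0.43 with an adjusted p of 0.111. H2-Q1, H2-Q2, H2-Q4, H2-Q6, H2-Q7 and H2-Q10 had strain means within 0.21 of each other.

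Of the 7 T region genes, none was called between the parents. H2-T10, which with H2-T22 is a ligand of gamma delta T cells, had non-overlapping parents at a small distance: 4.32 to 4.56 in ILS and 4.20 to 4.31 in ISS. Its difference, 0.13 (SE 0.07), had an adjusted p of 0.309, and both levels lay under the olfactory receptor median. H2-D1 and H2-T10 were the only 2 of 48 whose parents did not overlap (4.17%, against 3.47% of all genes). With a gap of at least 0.5 required, H2-D1 alone remained, against 0.107% of all genes.

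H2-T24 lay just outside the threshold, at 6.90, 6.98 and 7.05 in ILS and 6.54, 6.79 and 6.98 in ISS (lowest, median and highest). The difference was 0.20 (SE 0.06, adjusted p = 0.0523), and it was called under 7 of the alternative settings, among them both other scalings. H2-T22 was highest in LXS80, at 6.65, 6.52, 6.67, 6.54, 6.48 and 6.63, above all ILS profiles (6.17 to 6.44). It passed the test over strains (adjusted p = 0.0234) but neither contrast, with 0.27 against ILS (adjusted p = 0.108) and 0.31 against ISS (adjusted p = 0.0549). H2-T23, which encodes Qa-1, the ligand of an inhibitory receptor of natural killer cells, was level, with strain means within 0.10.

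The M region held 14 of the 48 genes, several of which are known from the vomeronasal organ, and 4 of them passed the test over strains. H2-M5 had lowest, median and highest values of 6.44, 6.55 and 6.64 in ILS, 6.12, 6.34 and 6.45 in ISS, 6.43, 6.58 and 6.64 in LXS41, and 6.29, 6.53 and 6.60 in LXS80. ISS was thus the low strain, its highest profile just reaching the ILS range. ILS minus ISS was 0.22 (SE 0.06, adjusted p = 0.0337) and LXS41 minus ISS 0.24 (SE 0.06, adjusted p = 0.0334). LXS80 minus ISS was 0.18 (SE 0.06, adjusted p = 0.11). The ILS minus ISS call was lost without ILS replicates 2, 3, 4 or 5 or ISS replicates 2, 4 or 6 (adjusted p 0.055 to 0.0871). The LXS41 minus ISS call ended without replicate 2, 3 or 4 of ISS or any of LXS41 but 3 (adjusted p 0.0544 to 0.0799). Both calls were also lost with only the 2 strains in the fit (adjusted p = 0.071 and 0.103). Within set 1 the differences were 0.26 for ILS minus ISS (adjusted p = 0.38) and 0.27 for LXS41 minus ISS (adjusted p = 0.251), no smaller than over all sets, and with a set term the adjusted p were 0.274 and 0.184. Among later sets they were 0.18 (adjusted p = 0.43) and 0.20 (adjusted p = 0.399).

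H2-M6-ps, a pseudogene of the M region, was lowest in LXS41, at 6.35, 6.43, 6.31, 6.27 and 6.40. These lay under all ILS profiles (6.53 to 6.85) and all ISS profiles (6.56 to 6.68), while LXS80 spanned 6.22 to 6.65. LXS41 minus ILS was -0.28 (SE 0.07, adjusted p = 0.0198) and LXS41 minus ISS -0.27 (SE 0.07, adjusted p = 0.0242). Leaving out replicate 4 of ILS or replicate 4 of LXS41 ended the first call (adjusted p 0.0524 and 0.0578). Leaving out replicate 3 of ISS, or replicate 1 or 4 of LXS41, ended the second (adjusted p 0.0606 to 0.0641). Median centring ended both (adjusted p = 0.0543 and 0.0751), and a fit of the 2 strains alone ended the first (adjusted p = 0.0547). With a set term they were -0.21 (adjusted p = 0.256) and -0.26 (adjusted p = 0.158). Both were lost within set 1 (adjusted p = 0.28 and 0.185) and among later sets (-0.34 and -0.26, adjusted p = 0.185 and 0.346) as well.

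H2-M10.3 was lower in both progeny strains than in ISS, at -0.32 in LXS41 (SE 0.09, adjusted p = 0.0458) and -0.36 in LXS80 (SE 0.09, adjusted p = 0.0282). Its values were 5.82, 6.0, 6.23, 6.46 and 6.25 in LXS41, 5.98, 6.21, 5.95, 6.21, 6.24 and 6.12 in LXS80, and 6.54, 6.44, 6.59, 6.48, 6.23 and 6.57 in ISS. LXS80 overlapped ISS only through ISS replicate 5, and LXS41 also through its own replicate 4. LXS41 minus ISS was -0.61 within set 1 (adjusted p = 0.0427) and -0.11 among later sets (adjusted p = 0.7), where LXS80 minus ISS was -0.31 (adjusted p = 0.199). Median centring (adjusted p = 0.07) and a fit of the 2 strains alone (adjusted p = 0.14) also ended the LXS41 call. The LXS41 call was lost in 12 of 23 runs with 1 profile left out, those without ILS replicates 5 or 6, any ISS replicate but 5, LXS41 replicates 1 or 2, or LXS80 replicates 2, 4 or 6 (adjusted p 0.0502 to 0.164). The LXS80 call was lost without ISS replicates 1, 3 or 6 or LXS80 replicates 1, 3 or 6 (adjusted p 0.0501 to 0.0749). H2-M10.1 passed only the test over strains (adjusted p = 0.041). H2-M3, which presents formylated peptides, was level, with strain means within 0.15. H2-M10.5-ps1 had the widest spread of the region without a call, from 3.16 to 5.07 over the 23 profiles.

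The remaining 4 H2- symbols, H2-K2, H2-Ke6, H2-Pa and H2-Pb, were not called; H2-Ke6 encodes a hydroxysteroid dehydrogenase, not a presenting molecule. Their strain means lay within 0.34 of each other. Over all 48 genes, 45 had strain means within 0.5 of each other, and H2-D1 alone had a range of at least 1. In all, 31 of 48 reached a level of 6 in at least 5 profiles and 17 did not. H2-D1 reached it only through ISS and LXS41.

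Between the first and the last H2- gene of chromosome 17 lay 166 other genes of the table, of which 7 were called for ILS minus ISS (4.22%, against 5.59% of all genes). Their share is thus not above the background, and the genes named next are those with the smallest p, given as a description. Stk19, Aif1 and C4a lie between the class II genes and H2-D1 in the RefSeq order. Stk19, a nuclear protein gene, had strain means of 8.54 in ILS, 8.61 in LXS80, 8.83 in LXS41 and 8.89 in ISS, the same order as for H2-D1. Aif1, a microglial calcium-binding protein gene, had 7.1 in ILS, 7.01 in LXS80, 6.81 in LXS41 and 6.70 in ISS. For both, LXS41 was called against ILS and LXS80 against ISS, as for H2-D1, but Aif1 ran in the opposite order. C4a, a complement gene, was highest in ILS at 6.65, with 6.37 in ISS, 6.34 in LXS41 and 6.39 in LXS80. For C4a the LXS80 mean was thus nearer to that of ISS than to that of ILS, though LXS80 shares no set with either. The ILS minus ISS differences were -0.35 (SE 0.06, adjusted p = 0.000273) for Stk19, 0.41 (SE 0.06, adjusted p = 6.09e-05) for Aif1 and 0.28 (SE 0.07, adjusted p = 0.0119) for C4a. Vars2 at -0.18, Rnf39 at 0.24 and Ppp1r10 at -0.20 were the others of the 6 with the smallest p. Genotypes of the strains along the complex were not analysed here.

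**Figure D4:**
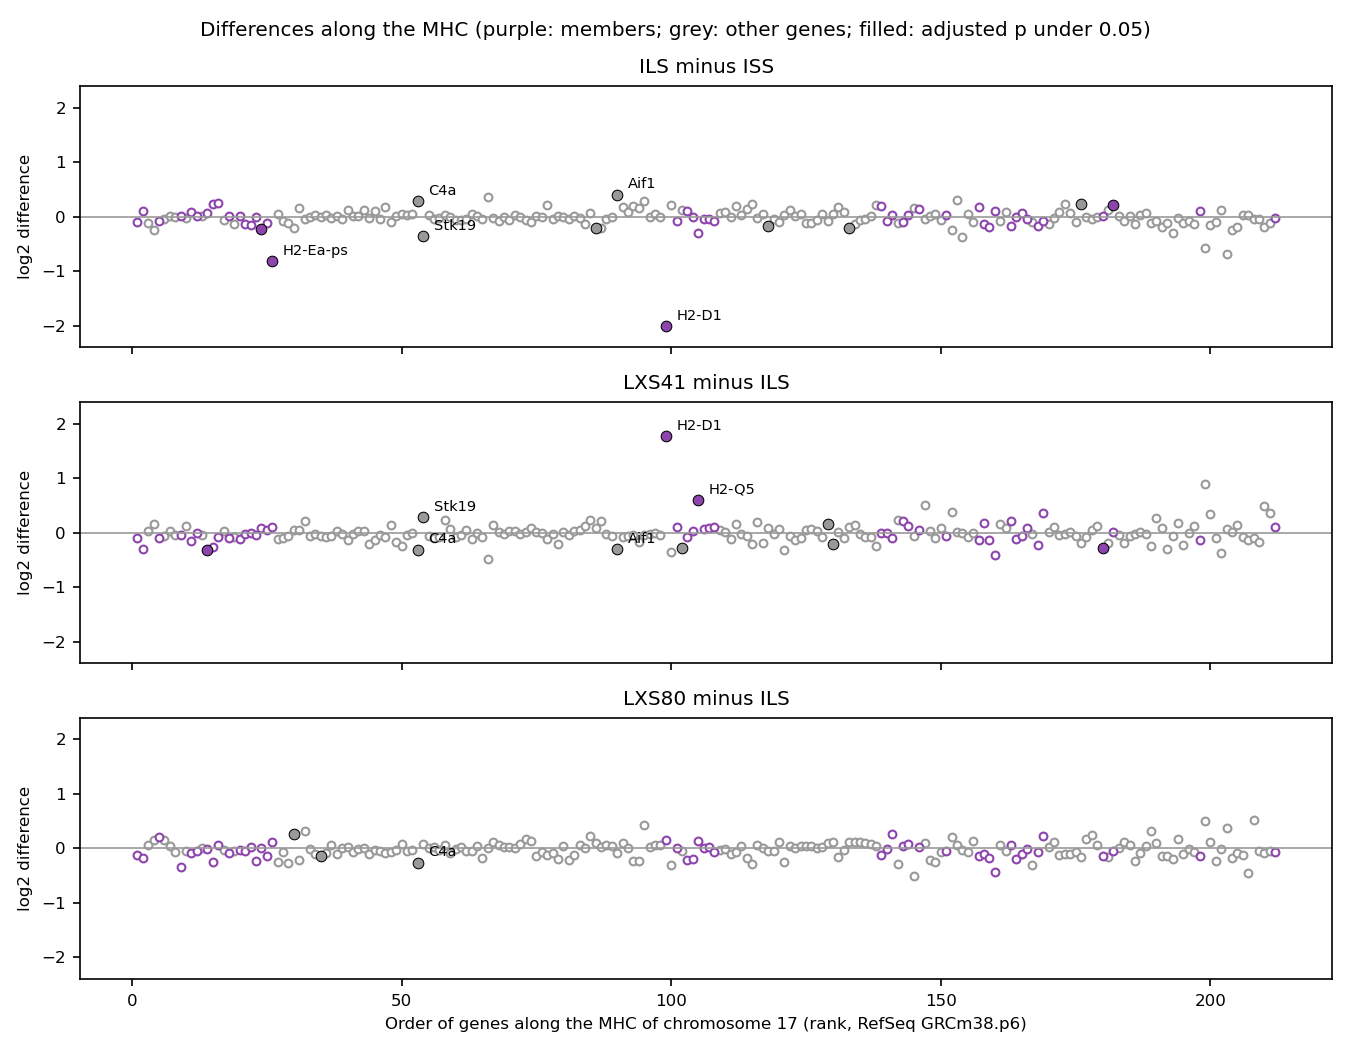
Log2 differences (y axis) for ILS minus ISS, LXS41 minus ILS and LXS80 minus ILS of the genes from the first to the last H2- gene of chromosome 17, in RefSeq order (x axis, rank). Purple points are members, grey points the 166 other genes, and filled points have an adjusted p under 0.05. H2-D1 is at -2.0, 1.77 and 0.15 in the 3 panels.

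The profiles of H2-D1 were most alike, among genes that are not members, to those of 5 genes on other chromosomes. Pearson's r over the 23 profiles was 0.88 for Fggy (chromosome 4), 0.87 for Pla2g4e (chromosome 2), 0.85 for Ncapd2 (chromosome 6), 0.83 for Gm6969 (chromosome 12) and 0.83 for Casp12 (chromosome 9). With 4 strains the 23 points fall into few levels, so these values describe strain sorting only. Among the members the highest r with H2-D1 were 0.62 for H2-M10.1 and 0.57 for H2-Q5, the lowest -0.51 for H2-T10. H2-K1 had -0.21 and B2m -0.14.

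Other genes of the pathway were called singly between the parents, and their counts by list stand against the 5.59% of all genes called. Of 17 regulators of MHC transcription, Rfx5 at -0.19 (SE 0.05, adjusted p = 0.0221) and Nfkb1 at -0.15 (SE 0.04, adjusted p = 0.0202) were lower in ILS and none was higher. The coactivators Nlrc5 of class I and Ciita of class II were at -0.01 and 0.06, with adjusted p of 0.947 and 0.736. Of 8 genes of peptide loading, Tapbp, which bridges the transporter and class I, was at -0.14 (SE 0.04, adjusted p = 0.0177), and Pdia6, a disulfide isomerase, was at 0.25 (SE 0.07, adjusted p = 0.0216). Hspa5, a chaperone of the endoplasmic reticulum, was at 0.26 and did not pass (SE 0.09, adjusted p = 0.123). Of 6 class II processing genes, 1, Ifi30, a thiol reductase, was higher in ILS at 0.21 (SE 0.06, adjusted p = 0.0334), while Ctss was at 0.25 (SE 0.08, adjusted p = 0.0735).

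None of 6 immunoproteasome genes, 9 class I-like genes outside the complex or 8 receptors of class I was called for ILS minus ISS by limma. Of 17 interferon-induced genes only Ifi27 was called, at 0.19 (SE 0.05, adjusted p = 0.0161). The median difference of that list was 0.01, and its mean level was 6.70 to 6.88 in ILS and 6.70 to 6.82 in ISS, so the parents overlapped.

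Single markers of cells that carry these molecules were called between the parents, in both directions. Of 10 microglia markers 3 were higher in ILS, Aif1, C1qb at 0.53 (SE 0.08, adjusted p = 0.000256) and C1qc at 0.57 (SE 0.06, adjusted p = 2.63e-06), and none was called lower. Of the other 7, 5 had a lower mean in ILS, among them Cx3cr1 at -0.17 (SE 0.06, adjusted p = 0.129), and the list's median difference was 0.01, against -0.01 over all genes. H2-D1 was lower in ILS. Of 6 dendritic cell markers Siglech was lower in ILS, at -0.25 (SE 0.05, adjusted p = 0.0013), and of 6 border macrophage markers Mrc1 was lower, at -0.18 (SE 0.05, adjusted p = 0.0491). None of 10 lymphocyte, 6 endothelial or 4 erythroid markers was called. Of 5 neuron markers, whose mean level was 11.7 to 11.9 in all profiles, Slc17a7 was higher in ILS at 0.20 (SE 0.04, adjusted p = 0.00612). The part of any of these cell types in the differences of the members was not tested.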

How the data were processed

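The mRNA values came from the deposited table of log2 expression per Ensembl gene. How the authors made these log2 values, their platform, the tissue of the mRNA profiles and the genome build: not given in the sources used here. A column was used where its name matched a labelled strain with no more columns than labelled samples (ILS, ISS, LXS41 and LXS80, 23 columns), and the other 376 columns were not used. Column medians were 7.11 to 7.24, pairs of profiles had Spearman correlations of 0.983 to 0.994, and none were identical. Array-like values carry no read depth, so the number of profiles limits the precision.

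Symbols came from the reference gene tables (26820 genes). The 48 members, their roles and all gene lists were chosen with earlier results of these data known. limma 3.58.1 (R 4.3.3) fitted strain means to all 27123 genes, with intensity trend and robust empirical Bayes, no filter on level and Benjamini-Hochberg adjustment over all genes, threshold 0.05. The fit was tested on simulated data. A gene is called where its adjusted p is under that threshold.

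By rule, all members are accounted for. Values, by profile or as lowest, median and highest, are given for those called between the parents and those with a range of strain means of at least 1. The same holds for B2m, Tap1, Tap2 and Cd74. Further named were up to 4 called genes of each list, the 5 genes most like the member with the largest parental difference, and up to 6 other genes of the complex with the smallest p. Other members and genes with values were named after their values were seen. Alternatives were a filter on level (6 in at least 5 profiles), quantile normalization, median centring, fits of the contrast's strains alone, no trend or robust step, a set term, set 1 or later sets alone and each profile left out. Tests of set 1 against later sets, for the parental difference and within a parent, were added after seeing the data.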

Additional observations from a re-analysis of the deposited data

Results flagged for a closer look

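In 13 of 192 groups (a member in the profiles of a strain), the highest or lowest profile lay far from the others by Dixon's criterion, which chance alone meets in about 1 in 20 groups. Among the genes described above, H2-Ea-ps stood at 6.31 in LXS41 replicate 1 against 6.80 to 6.84 in the others, and H2-T22 at 5.78 in ISS replicate 1 against 6.27 to 6.48. LXS80 replicate 6 stood apart in Cd74 (7.53, others 7.24 to 7.34), H2-M5 (6.29, others 6.50 to 6.60) and H2-Q5 (7.60, others 7.84 to 7.98). ISS replicate 4 was low in H2-M2 (5.16, others 5.43 to 5.59) and H2-Q2 (6.87, others 7.38 to 7.67), and ISS replicate 1 in H2-T23 (6.90, others 7.17 to 7.26). H2-Q10 was at 5.38 in LXS80 replicate 2, against 5.56 to 5.61. In LXS41, H2-K2 was at 8.96 in replicate 3 (others 8.63 to 8.70), Tap1 at 6.37 in replicate 3 (others 6.51 to 6.56), H2-Q6 at 7.85 in replicate 4 (others 7.61 to 7.68) and H2-T10 at 4.31 in replicate 1 (others 4.45 to 4.51). H2-D1 in LXS80 replicate 2, at 5.75, did not meet the criterion.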

How the results depend on the processing

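The H2-D1 difference between the parents kept its direction and its call under every alternative tried, and no called difference of a member reversed under any. Counts of members called moved as follows. For ILS minus ISS, 4 became 1 with a set term and 1 in set 1 alone, and 2 to 5 with each profile left out. For LXS41 minus ILS, 4 became 2 with median centring, 2 with only the strains of the contrast, 2 with a set term, 0 in later sets alone, and 2 to 5 with each profile left out. For LXS41 minus ISS, 4 became 2 with median centring, 1 with only the strains of the contrast, 2 with a set term, 1 in set 1 alone, 1 in later sets alone, and 1 to 5 with each profile left out. For LXS80 minus ILS, 0 became 1 with only its 2 strains, 1 in later sets alone, and 0 to 1 with each profile left out. For LXS80 minus ISS, 4 became 1 in later sets alone, and 2 to 6 with each profile left out. Over 4 strains, 10 became 3 with a set term, 2 in set 1 alone and 5 in later sets alone, and 6 to 11 with each profile left out. Fewer profiles enter the set 1 and later set fits, and LXS80 could not enter the set term or set 1, so the test over strains there covers the other 3. Parents that did not overlap, 2 members, became 1 with a gap of 0.5, 1 with the filter on level, 4 with quantile normalization, 9 in set 1 alone and 9 in later sets alone, where 15.4% and 18.6% of all genes did not overlap either, and 2 to 4 with each profile left out. The cause of the other changes was not tested. No paired analysis was possible because the mRNA column names carry none of the labels' replicate letters.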
